A study of Mus musculus with 16 samples.

Results

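The nuclear-encoded subunits of the mitochondrial respiratory chain and ATP synthase were followed in adrenal glands of mice. Members were chosen by name: a protein-coding gene of GENCODE M21 whose symbol begins with Nduf followed by a, b, c, s or v and a digit, is Sdha, Sdhb, Sdhc or Sdhd, begins with Uqcr, with Cox and a digit from 4 to 8, or with Atp5. The rule found 85 of the 54838 genes in the files, 37 for complex I, 4 for complex II, 8 for complex III, 18 for complex IV and 18 for complex V. The rule uses names and no measured value. Of the 85, 82 were abundant enough to be tested. The other 3 were Cox7b2, with at most 1 count in any library, Cox8c, with at most 3 counts, and a second identifier of Atp5o with 0 counts.

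The study compared female and male mice, control and with a gain of function (GOF) of Rspo1, the gene of R-spondin 1, which cells secrete and which amplifies WNT signals. Mice were 4 weeks old, of a mixed genetic background, and adrenal glands were sequenced, 1 library per mouse, in 4 groups of 4: female control, female GOF, male control and male GOF. The genotype label gives Rspo1 GOF or control alone; the construct, the cells in which it acts and its driver are not given in the sources used here. The protocol names total RNA of frozen adrenal glands and no separation of cortex and medulla.

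The respiratory chain of the inner mitochondrial membrane passes electrons from NADH (complex I) and succinate (complex II) through ubiquinone to complex III, on to cytochrome c and to complex IV, which reduces oxygen. The protons pumped on the way drive ATP synthase, complex V. A small set of core subunits is encoded by mitochondrial DNA and all others by nuclear genes, and in the steroid-making cells of the adrenal cortex the same organelles carry out the first step of hormone synthesis from cholesterol.

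Genes of this kind share promoter motifs of the factors NRF1, GABPA and YY1, and stretches before 6 members are printed to show them beside members without a match. RefSeq windows on GRCm38.p6 from 250 bases before to 50 bases after the start were found for 66 of the 84 member symbols. Among the 18 without one were Atp5a1, Atp5f1, Atp5mpl, Atp5s, Cox4i1, Cox4i2, Cox6a2, Cox6c, Cox8c, Ndufa2, Ndufa4l2, Ndufb9, Ndufs1, Sdhc, Uqcrb, Uqcrc2 and Uqcrq. Each stretch below is the longest one before the RefSeq start that overlaps no GENCODE exon, written 5′ to 3′ on the gene's strand, with capitals for matches to the searched motifs. Cox6a1 (chr5:115348982-115349129, minus strand) has 2 NRF1 matches, Ndufs5 (chr4:123718203-123718436, minus strand) an NR5A1 or ERR match and an NRF1 match, Uqcr11 (chr10:80406831-80407071, minus strand) an ETS core as bound by GABPA, and Atp5g3 (chr2:73911327-73911576, minus strand) an NR5A1 or ERR match. Cox7b (chrX:106015450-106015699, plus strand) and Cox8b (chr7:140900447-140900696, minus strand) have none of them in these stretches.
Cox6a1: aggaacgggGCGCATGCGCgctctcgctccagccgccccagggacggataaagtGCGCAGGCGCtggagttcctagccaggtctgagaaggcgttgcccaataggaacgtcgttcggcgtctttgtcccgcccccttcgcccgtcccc
Ndufs5: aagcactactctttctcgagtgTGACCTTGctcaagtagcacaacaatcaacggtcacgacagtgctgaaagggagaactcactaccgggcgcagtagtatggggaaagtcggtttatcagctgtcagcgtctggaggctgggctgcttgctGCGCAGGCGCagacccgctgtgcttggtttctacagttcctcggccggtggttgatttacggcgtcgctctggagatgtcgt
Uqcr11: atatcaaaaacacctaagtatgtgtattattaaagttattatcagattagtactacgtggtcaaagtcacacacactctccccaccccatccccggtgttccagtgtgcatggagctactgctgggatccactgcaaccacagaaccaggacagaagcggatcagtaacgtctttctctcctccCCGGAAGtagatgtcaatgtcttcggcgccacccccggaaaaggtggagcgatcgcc
Atp5g3: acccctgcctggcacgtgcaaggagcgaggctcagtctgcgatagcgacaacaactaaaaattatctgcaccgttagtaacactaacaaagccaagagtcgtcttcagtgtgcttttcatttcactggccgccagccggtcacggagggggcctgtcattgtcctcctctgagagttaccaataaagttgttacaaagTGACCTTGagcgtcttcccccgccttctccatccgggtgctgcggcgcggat
Cox7b: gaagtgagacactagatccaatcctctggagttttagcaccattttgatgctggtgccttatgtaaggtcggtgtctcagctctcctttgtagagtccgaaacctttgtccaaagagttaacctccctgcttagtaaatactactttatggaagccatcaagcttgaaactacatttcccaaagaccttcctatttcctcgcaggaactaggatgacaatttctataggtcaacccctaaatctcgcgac
Cox8b: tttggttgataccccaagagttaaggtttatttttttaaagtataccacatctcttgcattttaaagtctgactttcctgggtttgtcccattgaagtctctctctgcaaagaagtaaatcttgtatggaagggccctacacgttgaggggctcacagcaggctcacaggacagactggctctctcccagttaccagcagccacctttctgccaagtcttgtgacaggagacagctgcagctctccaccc

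Over the windows of 300 bases, the NRF1 motif (GCGCA, any base, then GCGC), on either strand, was present in 17 of the 66 members (25.8%), against 5.19% of all 27025 genes and 7.17% of the 17491 protein-coding ones. The ETS core CCGGAAG was in 16 members (24.2%), against 9.93% of all genes and 12.9% of protein-coding ones, and the YY1 motif AAGATGGC in 9 (13.6%), against 3.19% and 3.57%. The motif CAAGGTCA of NR5A1, a factor of steroid-making cells, and of the ERR factors was in 4 (6.06%), against 1.76% and 1.56%, and CTTTGAT, the core bound by the TCF/LEF factors of WNT signalling, in 1, Ndufa5 (1.52%), against 4.29% and 3.74%. A match is a run of letters, not a shown binding site. The median GC content was 57.2% in the members' windows and 56.3% in those of protein-coding genes. Members with the NRF1 motif had a median log2 fold change of -0.29 in GOF females and -0.46 in GOF males, and the others -0.32 and -0.48.

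Library totals ran from 31275146 to 43003968 counts, and CPM below stands for counts per 1000000 after TMM scaling. Rspo1 itself stood at 353 to 532 CPM in female GOF and 534 to 971 CPM in male GOF, against 3.19 to 40.5 CPM and 19.4 to 48.2 CPM in the controls. Markers of the adrenal cortex (7 genes) summed to 31986 CPM or more in every library, so the labelled tissue was present. Libraries also differed in other cells. The 6 medulla markers summed to 4632 to 11051 CPM in controls and 190.3 to 865 CPM in GOF. Kidney tubule markers (8 genes) summed to 1185 CPM in 1 female control (replicate 1) and 191 CPM in another (replicate 3), and liver markers (8 genes) 9031 CPM in male control 2. All 5 capsule markers fell in both sexes, from sums of 325 to 437 CPM to 116 to 159 CPM in females and from 601 to 756 CPM to 179 to 215 CPM in males. Both markers of the X-zone, a transient inner cortical layer, fell in females, from sums of 4906 to 7351 CPM to at most 1.044 CPM. In males both were also called lower, though both groups were near the floor. The sums were 0 to 3.24 CPM in male controls, with 0 in male control 1, and at most 0.106 CPM in male GOF. Of 7 macrophage markers 2 rose in females and 5 in males. The part of these cells in the results below was not tested. The counts over all members are also given without the 3 libraries with kidney or liver transcripts. In bulk tissue, fewer cells of a type and less RNA per cell cannot be told apart, and this holds for every result that follows.

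Most subunits were lower in GOF adrenals of both sexes. In females 54 of the 82 tested members fell and 1, Atp5g2, rose, tested with edgeR (quasi-likelihood, Benjamini-Hochberg adjusted over all 18214 tested genes, threshold 0.05); over all genes 20.6% were called lower and 19.0% higher. In males 69 members fell, where 21.8% of all genes were called lower, and 0 rose (0 at an unadjusted p under 0.05 with edgeR, and 0 called with DESeq2 and with voom, 1 with limma on log2(FPKM + 1)). The median log2 fold change of the members was -0.32 in females and -0.49 in males, against 0.05 and 0.01 over all genes. In 48 members all 4 female GOF libraries lay below all 4 female controls, and in 64 members in males, where 20.4% and 19.1% of all genes did. Without the 3 libraries with kidney or liver transcripts the female count was 25 lower, all among the 54, with a median of -0.24 and 79 of 82 log2 fold changes below 0; 15.2% of all genes were then called lower. The male count was then 67.

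Summed over all members, the level was 16564 ± 1188 CPM in female controls and 13553 ± 960.0 in female GOF (SD, n = 4), 18.2% less. In males it was 16523 ± 1321 CPM in controls and 11320 ± 523 in GOF (SD, n = 4), 31.5% less. The GOF libraries lay below every control of their sex. Male GOF 2, the highest of its group at 12068 CPM, was below female GOF 1, the lowest of its own at 12399 CPM.

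Of the 54 members lower in females, 49 (90.7%) were also lower in males, which is 71.0% of the 69 there; over all genes 14.5% were called lower in both sexes. These contrasts share no libraries. The 5 lower in females without a call in males were Cox6a2, Ndufa4, Ndufb4, Ndufc1 and Ndufc2. In neither sex a fall was called for 8 members, Atp5g1, Atp5g2, Atp5j, Atp5l, Atp5o, Atp5s, Ndufa11 and Ndufb2, of which 6 belong to ATP synthase. The log2 fold change was lower in males than in females for 65 of the 82, and across members the pair of changes correlated with 0.876 (Pearson's r) and 0.558 (Spearman's rho), given as a description because members share libraries.

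**Figure D1:**
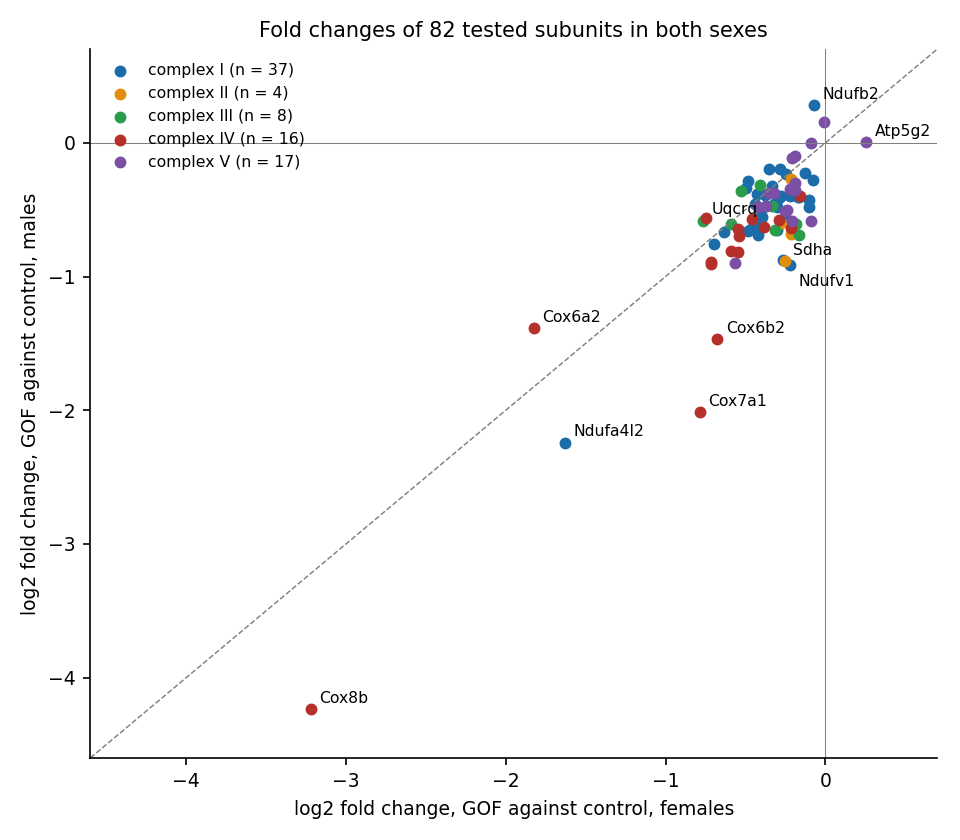
Log2 fold changes of GOF against control in females (horizontal) and in males (vertical) for the 82 tested subunits, 1 point each, coloured by complex; the dashed line marks equal change. Most points lie below 0 on both axes and 65 lie below the dashed line. Cox8b, Ndufa4l2, Cox7a1, Cox6a2 and Cox6b2 are among those far from the rest.

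Complex I, the NADH dehydrogenase, had median changes of -0.30 (females) and -0.43 (males) in log2 units. Of its 37 members 26 fell in females and 31 in males, beside 20.6% and 21.8% of all genes. The summed level was 4401 ± 305 CPM in controls and 3573 ± 198 in GOF among females, and 4562 ± 358 and 3263 ± 127 CPM among males (SD, n = 4), 18.8% and 28.5% less. Of the core subunits that carry the electrons, Ndufs1, with iron-sulfur clusters, read 223, 219, 223 and 208 CPM in female controls 1 to 4 and 158, 183, 190.2 and 177 in female GOF 1 to 4. In male controls Ndufs1 read 183, 198, 221 and 194 CPM and in male GOF 120.1, 135, 126 and 124. The groups did not overlap in either sex, and male GOF was lowest of all. For Ndufs1, GOF minus control came to -0.30 ± 0.0707 (SE) in log2 units in females (adjusted p 0.00367) and to -0.65 ± 0.071 (SE) in males (adjusted p 6.74e-06; edgeR's quasi-likelihood fit).

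Ndufv1, the flavoprotein that takes electrons from NADH, read 224, 193, 197 and 196 CPM in female controls and 149, 170.2, 198 and 179 CPM in female GOF. In males Ndufv1 read 197, 243, 284 and 216 CPM in controls and 123, 139, 118 and 119 CPM in GOF. Female GOF 3 reached the range of the female controls, whereas the male groups stood well apart. For Ndufv1, GOF minus control came to -0.22 ± 0.109 (SE) in log2 units in females (adjusted p 0.128) and to -0.91 ± 0.11 (SE) in males (adjusted p 1.67e-05; edgeR's quasi-likelihood fit). Ndufa10, an accessory subunit, had -0.26 in females (adjusted p 0.0664, edgeR) and -0.87 in males (adjusted p 2.28e-05).

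Ndufb9, a small accessory subunit of complex I, fell in both sexes. It read 30.7, 25.3, 21.5 and 26.6 CPM in female controls against 19, 16.5, 14.9 and 14.1 CPM in female GOF. In males Ndufb9 went from 27.6, 32.4, 34.1 and 23.1 CPM to 17.1, 17.6, 16.8 and 18.1 CPM. Controls were above GOF in every library of either sex, with log2 fold changes of -0.69 and -0.76; 20.3% of its windows of 75 bases recur in another gene, so part of its reads could have been counted elsewhere. Ndufa1, on the X chromosome, had -0.64 and -0.66, both past the threshold. At the other end of those that fell, Ndufs3 had -0.20 and Ndufa13 -0.22 in females, and Ndufb7 -0.23 and Ndufa12 -0.32 in males. The calls of Ndufs3 and Ndufa13 in females ended in 9 and 10 of 29 alternatives, among them leaving out female control 1, 2 or 3 or female GOF 1. The call of Ndufb7 ended in 7, among them leaving out male control 3 or male GOF 3. Ndufs3 shares 28.2% of its windows and Ndufa13 25.6% with other genes.

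Ndufa4 and its paralog Ndufa4l2 carry complex I names, although the NDUFA4 protein is known from complex IV. Ndufa4l2, a gene known to be induced by low oxygen and present in pericytes, read 37.9, 36.9, 24.1 and 28.4 CPM in female controls and 7.62, 10.9, 12.3 and 10.4 CPM in female GOF. In males Ndufa4l2 read 55.3, 65.1, 61.4 and 74.5 CPM in controls and 14.4, 12.2, 14.1 and 13.4 CPM in GOF. Male controls were the highest group, and every GOF library lay below every control. For Ndufa4l2, GOF minus control came to -1.63 ± 0.159 (SE) in log2 units in females (adjusted p 4.35e-06) and to -2.24 ± 0.162 (SE) in males (adjusted p 3.42e-07; edgeR's quasi-likelihood fit). Of the summed FPKM (fragments per kilobase of transcript per 1000000, the authors' values) of both genes, Ndufa4l2 took 10.2% ± 1.65 in female controls and 4.89% ± 0.838 in female GOF, and 19.8% ± 3.11 in male controls and 6.10% ± 1.08 in male GOF (SD, n = 4). The 5 markers of smooth muscle and pericytes summed to 166 to 253 CPM in female controls and 116 to 169 CPM in female GOF, and to 186 to 466 CPM and 176 to 230.4 CPM in males; their part in the result was not tested. Ndufa4 itself had -0.48 ± 0.142 (SE) in females, adjusted p 0.0148, and -0.28 ± 0.142 (SE) in males, adjusted p 0.133 (edgeR's quasi-likelihood fit), where male GOF 3 stood at 245 CPM and the other 3 at 150.0 to 159.7 CPM.

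Complex II, succinate dehydrogenase, is the only one of the 5 encoded wholly in the nucleus. Of its 4 members 1 fell in females, Sdhd, and all 4 in males, with medians of -0.24 and -0.64; over all genes 20.6% fell in females, a share near 1 of 4. Sdha, the flavoprotein that oxidises succinate, read 1016, 897, 1005 and 899.6 CPM in female controls and 708, 779.6, 880.0 and 831 CPM in female GOF. In males Sdha read 822, 944, 998 and 865 CPM in controls and 462, 590.4, 430.5 and 483 CPM in GOF. All GOF libraries lay below the controls of their sex, narrowly in females and by a wide margin in males. For Sdha, GOF minus control came to -0.25 ± 0.105 (SE) in log2 units in females (adjusted p 0.066) and to -0.89 ± 0.106 (SE) in males (adjusted p 1.5e-05; edgeR's quasi-likelihood fit).

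Sdhb, the iron-sulfur subunit, had log2 fold changes of -0.22 and -0.27, of which the second passed (adjusted p 0.0351, edgeR) and was lost in 12 of 29 alternatives, among them leaving out male control 1 or 3 or male GOF 1, 3 or 4. Sdhc and Sdhd, which anchor the enzyme in the membrane, had -0.21 and -0.28 in females and -0.68 and -0.60 in males. The female call of Sdhd ended in 9 of 29 alternatives, among them leaving out female control 1, 2 or 3 or female GOF 1. Summed, complex II went from 1593 ± 123 to 1344 ± 116 CPM in females, 15.6% less, and from 1537 ± 125 to 953 ± 112 CPM in males, 38.0% less (SD, n = 4).

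Complex III, the cytochrome bc1 complex, had medians of -0.37 and -0.59. In females 6 of its 8 members fell and in males all 8, beside 20.6% and 21.8% of all genes. Its summed level was 23.3% lower in female GOF and 31.7% lower in male GOF, with no overlap of the groups. Uqcrq, a small subunit bound to cytochrome b, read 317, 323, 356 and 286 CPM in female controls and 210.2, 214, 169.8 and 161 CPM in female GOF. In males Uqcrq read 308, 299, 302 and 218 CPM in controls and 179, 190.3, 207 and 177 CPM in GOF. Male control 4 lay far below the other male controls and still above all of male GOF. For Uqcrq, GOF minus control came to -0.76 ± 0.12 (SE) in log2 units in females (adjusted p 0.000192) and to -0.58 ± 0.12 (SE) in males (adjusted p 0.00164; edgeR's quasi-likelihood fit).

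Uqcrb, another small subunit, had -0.59 and -0.61 and fell in both sexes. Uqcrc1, a large core subunit, read 375, 303, 325 and 295 CPM in female controls against 254, 282, 339 and 285 CPM in female GOF. In males Uqcrc1 went from 311, 365, 439 and 349 CPM to 238, 248, 206 and 215 CPM. The female groups overlapped and the male groups did not, with log2 fold changes of -0.16 (adjusted p 0.28, edgeR) and -0.69 (adjusted p 0.000311). Uqcrfs1, the Rieske iron-sulfur protein, fell in both, by 0.32 and 0.65 on the log2 scale, and Uqcrh, the hinge protein that docks cytochrome c1, by 0.33 and 0.47. The smallest falls in males were those of Uqcr11 (-0.32) and Uqcr10 (-0.36), which had -0.41 and -0.53 in females.

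**Figure D2:**
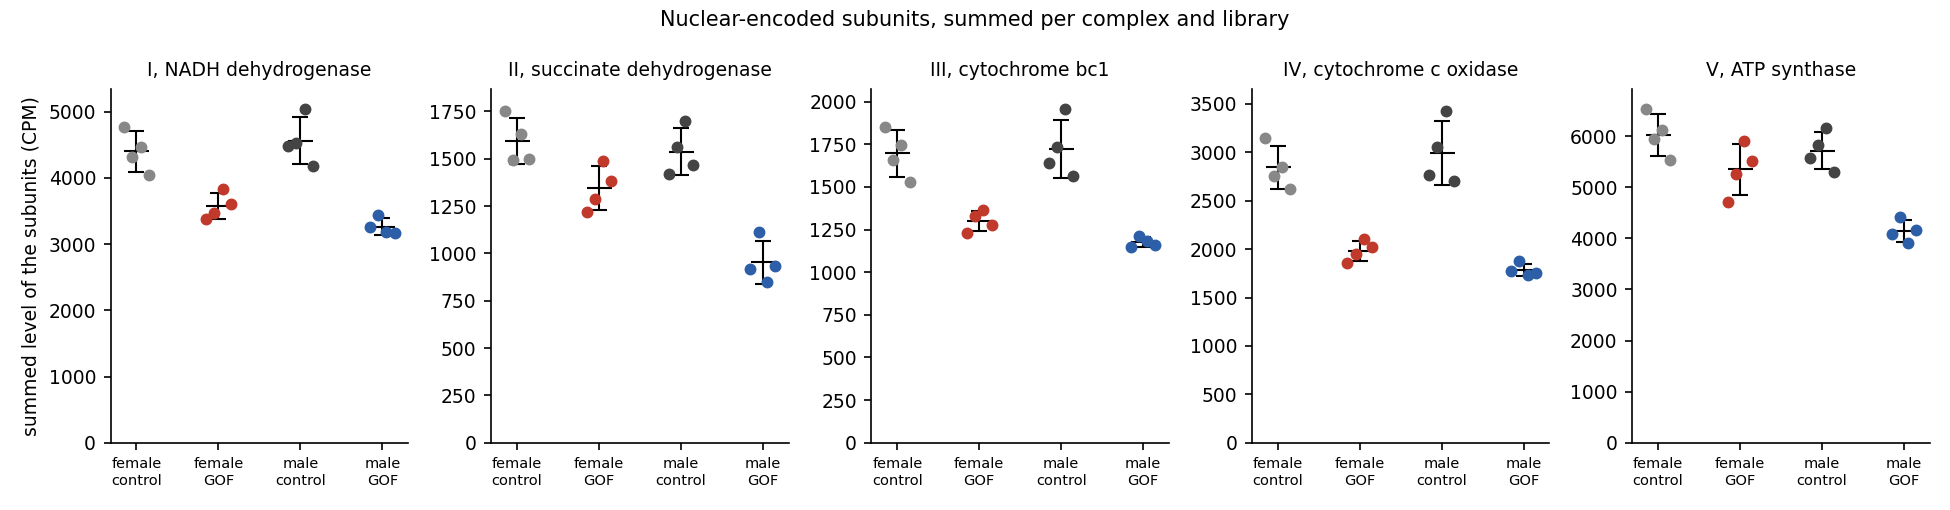
Summed CPM of the nuclear-encoded subunits of each complex in every library (points), with the mean and SD of each group of 4. In complexes I to IV the GOF libraries of each sex lie below all controls of that sex, and in complex V the male ones do and the female ones overlap with their controls.

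Complex IV, cytochrome c oxidase, had the lowest medians of the 5, -0.57 in females and -0.75 in males. Of its 16 tested members 13 and 15 were lower, beside 20.6% and 21.8% of all genes. Its summed level was 2844 ± 226 CPM in controls and 1986 ± 103 in GOF among females, and 2990.2 ± 329 and 1782 ± 64.5 CPM among males (SD, n = 4), 30.2% and 40.4% less. Several of its subunits exist as a general form and a form restricted to muscle, fat, lung or testis. Without the 7 genes of restricted forms (Cox4i2, Cox6a2, Cox6b2, Cox7a1, Cox7b2, Cox8b and Cox8c) the sum was 29.0% lower in female GOF and 37.6% lower in male GOF, and 10 and 11 of the 11 general members fell, with medians of -0.54 and -0.64.

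Cox6a1, the most abundant complex IV gene per length, with a mean of 945 FPKM over all libraries, read 707, 685, 758 and 667 CPM in female controls and 412, 447, 538 and 475 CPM in female GOF. In males Cox6a1 read 664, 714, 771 and 649 CPM in controls and 394, 435, 389 and 379 CPM in GOF. Every GOF library was below every control. For Cox6a1, GOF minus control came to -0.59 ± 0.0883 (SE) in log2 units in females (adjusted p 0.000125) and to -0.81 ± 0.0885 (SE) in males (adjusted p 7.12e-06; edgeR's quasi-likelihood fit). Cox7b, an X-linked small subunit whose promoter stretch is printed above without a match, read 145, 121, 118 and 110.2 CPM in female controls and 74.3, 77.2, 72.9 and 76 CPM in female GOF. In males Cox7b read 98.1, 129, 144 and 116 CPM and 60.9, 64.1, 71.4 and 65 CPM. The female GOF values of Cox7b lay between 72.9 and 77.2 CPM, and its log2 fold changes were -0.72 in females and -0.89 in males.

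Cox5a, a subunit on the matrix side, had -0.71 and -0.90, and Cox6c -0.74 and -0.56, all past the threshold. Cox4i1, the general form of the largest nuclear subunit, read 389, 323, 317 and 306 CPM in female controls against 264, 271, 289 and 268 CPM in female GOF. In males Cox4i1 went from 401, 405, 439 and 339 CPM to 279.5, 302, 225 and 256 CPM. GOF lay below control in both sexes without overlap, with log2 fold changes of -0.29 (adjusted p 0.0352, edgeR) and -0.57 (adjusted p 0.000518). The female call of Cox4i1 ended in 8 of 29 alternatives, among them leaving out female control 1 or 2 or female GOF 1 or 4. That of Cox5b, at -0.21, also ended in 8, among them leaving out female control 1 or 3 or female GOF 1. Cox7a2l, which helps to join complexes into supercomplexes, had -0.16 without a call in females and -0.40 with one in males.

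Among the restricted forms Cox8b had the lowest log2 fold change in either sex. Cox8b, the subunit VIII form of muscle and brown fat, read 71.9, 32.3, 27.7 and 56.2 CPM in female controls and 1.957, 11.2, 5.01 and 1.86 CPM in female GOF. In males Cox8b read 44, 114, 180.1 and 119.6 CPM in controls and 3.89, 6.79, 7.63 and 5.91 CPM in GOF. Every control library was above every GOF library. For Cox8b, GOF minus control came to -3.22 ± 0.573 (SE) in log2 units in females (adjusted p 0.000571) and to -4.24 ± 0.595 (SE) in males (adjusted p 7.8e-05; edgeR's quasi-likelihood fit). Of the summed FPKM of Cox8a, Cox8b and Cox8c, Cox8b took 17.9% ± 5.90 in female controls and 3.29% ± 2.76 in female GOF, and 30.9% ± 10.4 in male controls and 3.94% ± 1.09 in male GOF (SD, n = 4). Cox8a, the general form, fell by 0.54 and 0.70 on the log2 scale.

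Cox7a1, the muscle and fat form of subunit VIIa, read 44.6, 25.6, 28 and 36.9 CPM in female controls and 9.76, 21.8, 19.1 and 27.8 CPM in female GOF. In males Cox7a1 read 7.81, 43.8, 79.3 and 49.2 CPM in controls and 9.29, 8.71, 14.3 and 12.2 CPM in GOF. Male control 1 was the lowest of all 16 libraries, below male GOF, and the other 3 male controls were above them. For Cox7a1, GOF minus control came to -0.79 ± 0.479 (SE) in log2 units in females (adjusted p 0.211) and to -2.02 ± 0.496 (SE) in males (adjusted p 0.00569; edgeR's quasi-likelihood fit). The male value was -2.37 without male control 1, and the call ended in limma on log2(FPKM + 1) without a filter. Its general partner Cox7a2 fell, with -0.38 and -0.63.

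Markers of brown fat and of fat cells moved with these forms. The 5 brown fat markers summed to 95.5 to 229 CPM in female controls and 10.1 to 32.9 CPM in female GOF, and to 84.0 to 434 CPM and 13.7 to 26.4 CPM in males. Ucp1, the uncoupling protein that defines brown fat, read 98.5, 38.3, 38.5 and 30.7 CPM in female controls and 0, 12.3, 6.5 and 2.74 CPM in female GOF. In males Ucp1 read 0.922, 63.1, 152 and 144 CPM in controls and 1.35, 5.48, 8.58 and 12.8 CPM in GOF. Male control 1, low for Cox7a1, was also low for Ucp1. Cidea, another brown fat gene, read 37.9 to 99.99 CPM and 1.17 to 14.2 CPM in females, and 69.7 to 254 CPM and 4.79 to 10.8 CPM in males. The 6 adipocyte markers summed to 819 to 1280.3 CPM and 339 to 546 CPM in females, and to 1071 to 2542 CPM and 285 to 369 CPM in males. Of all genes 20.6% fell in females and 21.8% in males. Of the 5 brown fat markers 4 fell in females and 5 in males, and of the 6 adipocyte markers 5 and 6. Their part in the falls of Cox8b and Cox7a1 was not tested. The 7 skeletal muscle markers summed to at most 5.29 CPM in all libraries but male control 2, at 82.2 CPM, and the 4 heart markers to at most 1.62 CPM.

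**Figure D3:**
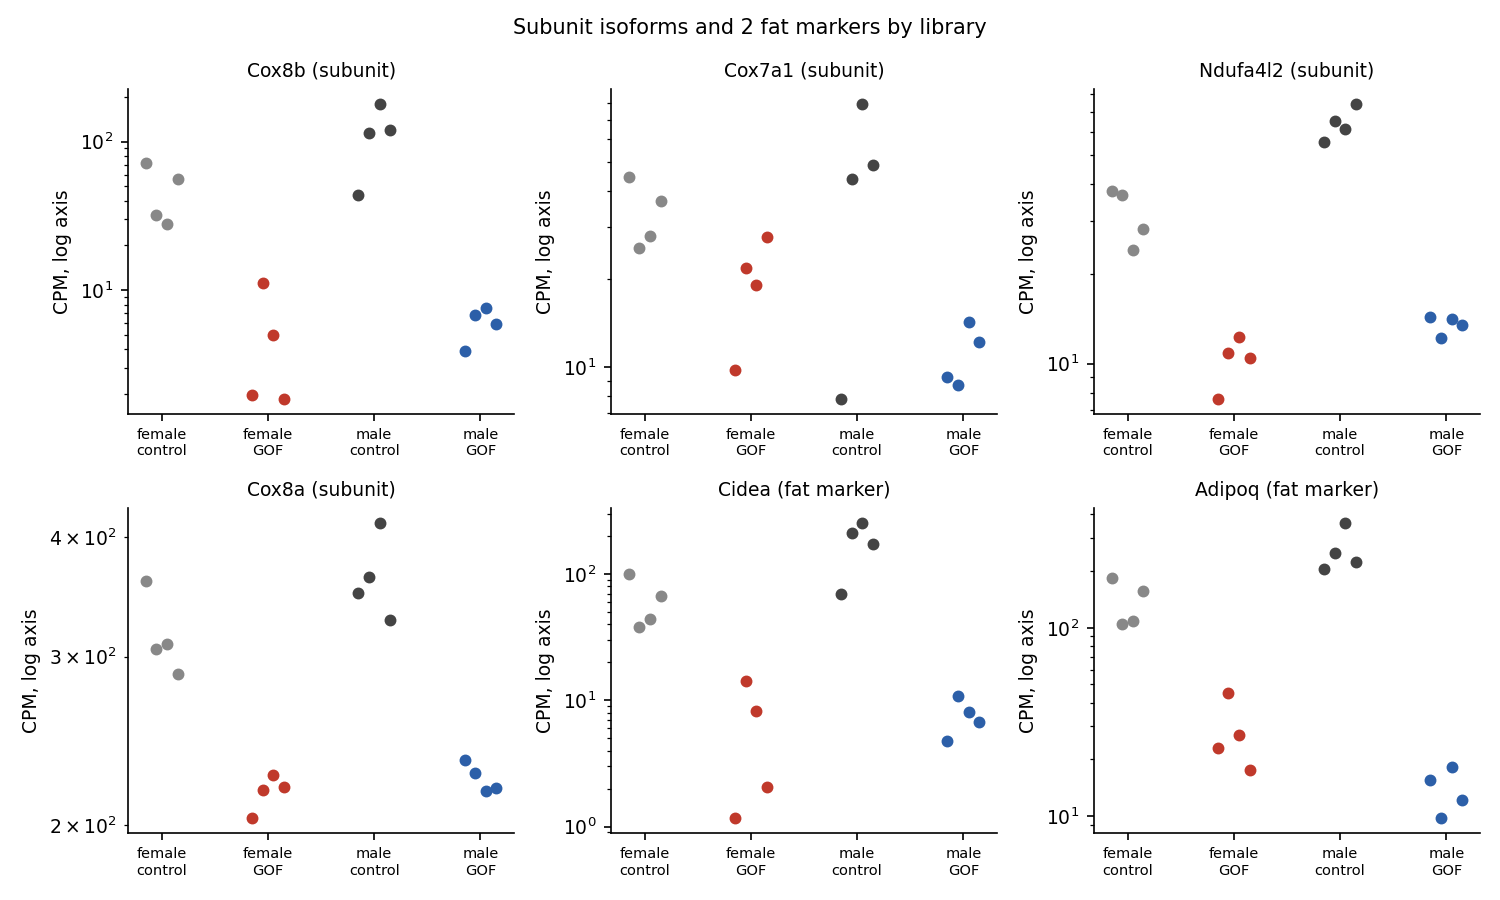
CPM on a log axis in every library for the restricted subunit forms Cox8b, Cox7a1 and Ndufa4l2, the general form Cox8a, and the fat markers Cidea and Adipoq. Controls lie above GOF in every panel, except that Cox7a1 overlaps in females and has male control 1 below the male GOF libraries.

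Other restricted forms were scarce. Cox6b2, a testis form, was at 2.52 to 5.95 CPM (controls) and 1.93 to 2.94 CPM (GOF) in females, and at 4.58 to 6.18 and 1.24 to 2.45 CPM in males, with log2 fold changes of -0.68 (adjusted p 0.0689, edgeR) and -1.47 (adjusted p 0.00101). The 4 markers of testis germ cells summed to at most 1.34 CPM. Cox6b2 took 2.28% ± 0.164 of the summed Cox6b FPKM in male controls and 1.48% ± 0.498 in male GOF (SD, n = 4). In females it took 1.53% ± 0.527 in controls and 1.42% ± 0.221 in GOF (SD, n = 4). Cox4i2, the form of lung and of cells that sense oxygen, stood at 2.03 to 2.88 CPM in female controls and 1.55 to 1.91 CPM in female GOF, and fell in both sexes (-0.54 and -0.64). The female call of Cox4i2 ended in 9 of 29 alternatives, among them leaving out female control 1 or 4 or female GOF 1 or 2, and the male one without the filter on low counts. Cox6a2, the striated muscle form, read 0.188 to 0.584 CPM in female controls and 0.0571 to 0.204 CPM in female GOF, and its female fall of 1.82 on the log2 scale (adjusted p 0.0441, edgeR) ended in 10 of 25 alternatives, among them leaving out female control 2 or 3 any of female GOF 2, 3 and 4, male control 4 or male GOF 2.

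Complex V, ATP synthase, moved the least in females. Its median was -0.21 in females and -0.37 in males. Of 17 tested members 8 fell and 1 rose in females and 11 fell in males. Beside these, 20.6% of all genes fell and 19.0% rose in females, and 21.8% fell in males. The summed level went from 6031 ± 411 to 5350.2 ± 500 CPM in females, 11.3% less with overlapping groups, and from 5712 ± 363 to 4145 ± 214 CPM in males, 27.4% less without overlap (SD, n = 4). Atp5b, the catalytic beta subunit and the most abundant member per length, with a mean of 2133 FPKM, read 2261, 1938, 2096 and 1980.0 CPM in female controls and 1558, 1951, 2209 and 2048 CPM in female GOF. In males Atp5b read 1955, 2132, 2263 and 2019 CPM in controls and 1372, 1498, 1265 and 1457 CPM in GOF. Of female GOF only library 1 was below the controls, and every male GOF library lay below every male control. For Atp5b, GOF minus control came to -0.09 ± 0.105 (SE) in log2 units in females (adjusted p 0.513) and to -0.58 ± 0.105 (SE) in males (adjusted p 0.000576; edgeR's quasi-likelihood fit). Atp5a1, the alpha subunit, had -0.21 (adjusted p 0.104, edgeR) and -0.58 (adjusted p 0.000293).

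Atp5k, the small e subunit of the membrane part that takes part in dimer formation, fell the most within the complex. It read 63.6, 46.8, 50.7 and 50.6 CPM in female controls and 39.6, 36.4, 32.8 and 34.2 CPM in female GOF. In males Atp5k went from 52.6, 69.3, 76.1 and 51.6 CPM to 33.3, 36.1, 30.1 and 34.6 CPM. No GOF library reached a control of its sex, and the log2 fold changes were -0.57 and -0.90. Atp5j2, the f subunit, had -0.42 and -0.48, and Atp5h, the d subunit of the stalk, -0.19 and -0.30, all past the threshold. The female call of Atp5h ended in 6 of 29 alternatives, among them leaving out female control 1 or female GOF 1, and 18.9% of its windows recur in another gene. Atp5f1, the b subunit, fell by 0.22 in females, a call that ended in 11 of 29 alternatives, among them leaving out female control 1, 2 or 3 or female GOF 1, and by 0.35 in males.

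The c subunit, which forms the rotating ring, is made from 3 genes that encode the same mature protein with different import sequences, and these went apart. Atp5g1 read 44, 46.9, 46.9 and 33.9 FPKM in female controls and 39.6, 45.2, 48.5 and 44.8 FPKM in female GOF. In males Atp5g1 read 43.1, 40.3, 37.1 and 40.8 FPKM in controls and 44.9, 44.3, 58 and 47.8 FPKM in GOF. The female groups overlapped, and in males every GOF library was above every control in FPKM, though not in CPM. In edgeR's quasi-likelihood fit on the counts the log2 fold changes were -0.01 ± 0.111 (SE), adjusted p 0.95, and 0.15 ± 0.111 (SE), adjusted p 0.298.

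Atp5g2 read 307, 256, 280.1 and 282 FPKM in female controls and 334, 326, 373 and 368 FPKM in female GOF. In males Atp5g2 read 300.3, 292, 307 and 271 FPKM in controls and 301, 333, 318 and 323 FPKM in GOF. Every female GOF library was above every female control. For Atp5g2, GOF minus control came to 0.26 ± 0.0731 (SE) in log2 units in females (adjusted p 0.0119) and to 0.01 ± 0.0731 (SE) in males (adjusted p 0.963; edgeR's quasi-likelihood fit). The female call ended in 4 of 29 alternatives: totals without mitochondrially encoded genes, no filter, and leaving out female GOF 3 or 4.

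Atp5g3 read 551.5, 603, 577 and 467 FPKM in female controls and 391, 453, 504 and 447 FPKM in female GOF. In males Atp5g3 read 404, 377, 351 and 328 FPKM in controls and 304, 331, 291 and 297 FPKM in GOF. Its FPKM was lower in males than in females in either genotype, and GOF overlapped with control in both sexes; in CPM, male GOF (205 to 246) lay below male controls (251 to 326). For Atp5g3, GOF minus control came to -0.35 ± 0.11 (SE) in log2 units in females (adjusted p 0.0189) and to -0.37 ± 0.11 (SE) in males (adjusted p 0.0153; edgeR's quasi-likelihood fit). The female call of Atp5g3 was lost without female control 2, female control 3 or female GOF 1, and the calls of both sexes were lost without the 3 libraries with kidney or liver transcripts; the male one also ended in limma on log2(FPKM + 1) without a filter. Of the summed FPKM of the 3 genes, Atp5g3 held 62.8% ± 3.04 in female controls, 53.2% ± 1.88 in female GOF, 52.2% ± 1.65 in male controls and 45.4% ± 1.61 in male GOF (SD, n = 4). Atp5g2 held 32.3% ± 3.395, 41.6% ± 1.99, 42.0% ± 1.72 and 47.3% ± 0.900 in the same order. Atp5g1 shares 7.6% and Atp5g2 8.0% of the windows of their longest transcripts with other genes, 35 of them for Atp5g1. The share of reads affected was not measured, so how uncertain their counts are is not known.

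**Figure D4:**
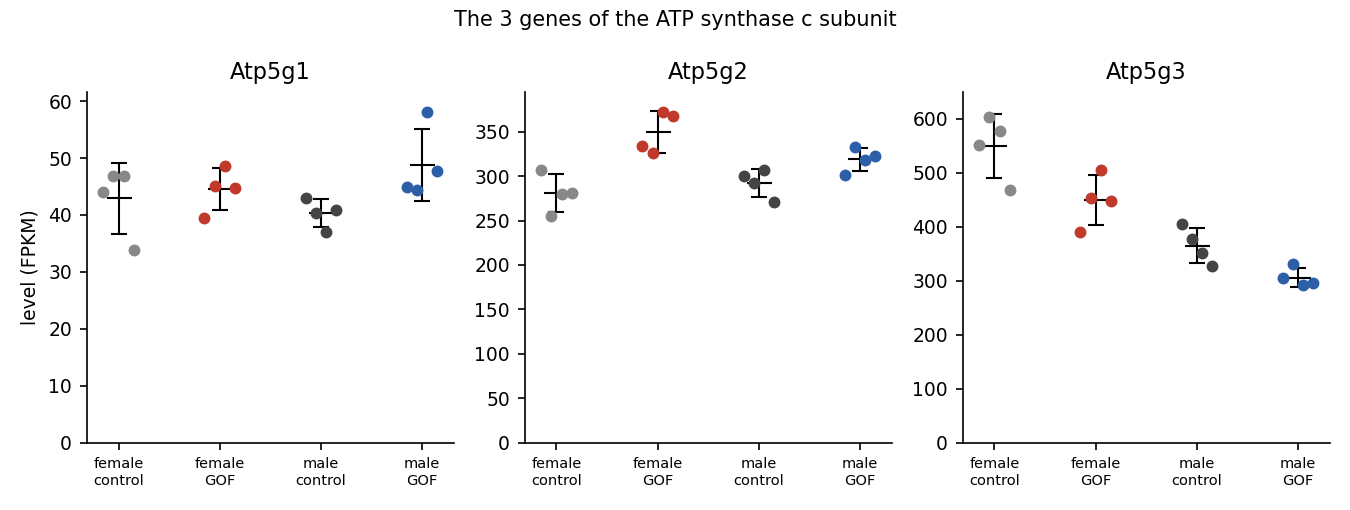
FPKM of Atp5g1, Atp5g2 and Atp5g3 in every library (points) with the mean and SD of each group of 4. Atp5g2 is higher in all female GOF libraries than in female controls, and Atp5g3 is lower in males than in females in both genotypes. Atp5g1 overlaps in females and is higher in all male GOF libraries than in male controls. In CPM the male groups of Atp5g1 overlap.

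Males and females were also compared within each genotype. These comparisons use the same groups as the GOF contrasts, so their values are given side by side only. In controls 8 of 82 members were called, 3 higher and 5 lower in males, where 23.4% of all genes were called, 13.5% higher and 9.89% lower. Ndufa4l2 was higher in male controls by 1.01 ± 0.155 (SE) on the log2 scale, adjusted p 0.000362 (edgeR's quasi-likelihood fit). Cox7a2l and Ndufb8 were higher by 0.33 and 0.30. Atp5g3 was lower in male controls, at -0.60 ± 0.11 (SE), adjusted p 0.00135 (edgeR), followed by Ndufc1 at -0.32 and Cox7c at -0.30. The calls of Ndufb8, Ndufc1, Cox7a2l and Cox7c ended in 26, 17, 10 and 10 of 29 alternatives. The count was 2, Ndufa4l2 and Atp5g3, without the 3 libraries with kidney or liver transcripts and without female control 3 alone. It was 3 without female control 2 or male control 2 and 5 without male control 3 or female GOF 1. It was 11 higher and 4 lower with voom and 9 higher and 2 lower without female control 1, so the balance of higher and lower calls turned. It was 1 higher and 0 lower when the range of the animal numbers, as titles give them, was a covariate, so the call of Atp5g3 ended there.

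In GOF 24 members were called between the sexes, 1 higher and 23 lower in males, against 29.6% of all genes called, 13.3% higher and 16.3% lower, so the count as a whole was near the background. Without the 3 libraries with kidney or liver transcripts it was 1 higher and 20 lower. In the same comparison 4 of 7 adrenal cortex markers were lower in males (median -0.68), and all 5 endothelium markers (median 0.63) and all 5 capsule markers (median 0.75) were higher. Their summed levels in female and male GOF were 45209 to 52412 and 33817 to 46653 CPM for cortex, 394 to 449.6 and 550.5 to 731 CPM for endothelium, and 116 to 159 and 179 to 215 CPM for capsule; their part in the result was not tested. Sdha was lower in male GOF at -0.70 ± 0.105 (SE), adjusted p 0.000209, and Ndufa10 at -0.57 ± 0.109 (SE), adjusted p 0.0013 (edgeR's quasi-likelihood fit). Atp5g3 was lower by a like amount as in controls, at -0.62. The large catalytic or core subunits Ndufs1 (-0.49), Ndufv1 (-0.48), Atp5a1 (-0.49), Atp5b (-0.47), Uqcrc1 (-0.35), Uqcrc2 (-0.37) and Uqcrfs1 (-0.31) were among the 23, and the calls of Uqcrc1 and Uqcrfs1 ended in 11 and 8 of 29 alternatives. Ndufb2, a small complex I subunit, was the 1 higher in male GOF, with 5.14, 5.26, 4.42 and 5.83 CPM in female GOF and 7.55, 8.31, 9.16 and 9.66 CPM in male GOF. It is among the least abundant members and did not overlap between these groups, at 0.75 ± 0.161 (SE) on the log2 scale (adjusted p 0.00282, edgeR). Without female GOF 3 the count of members was 15. With the animal number range as a covariate it was 0 higher and 2 lower in males, so the call of Ndufb2 ended there.

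Whether GOF acted differently in the sexes was tested as an interaction. It was called for 4 members, each with a lower log2 fold change in males, where 4.21% of all genes were called, 2.61% lower and 1.59% higher; 4 of 82 is near that share. Ndufv1 had a difference of -0.70 ± 0.155 (SE), adjusted p 0.0224, and Sdha of -0.63 ± 0.148 (SE), adjusted p 0.0285 (edgeR's quasi-likelihood fit). Ndufa10 had -0.61 ± 0.153 (SE), adjusted p 0.0376, and Cox5b -0.42 ± 0.107 (SE), adjusted p 0.0388 (edgeR). The median difference of all members was -0.17, against -0.06 over all genes. The calls of Cox5b, Ndufa10, Sdha and Ndufv1 ended in 22, 18, 15 and 8 of 28 alternatives. Without the 3 libraries with kidney or liver transcripts the count was 0 (21 at an unadjusted p under 0.05 with edgeR). It was also 0 without female control 3 (14 unadjusted), female GOF 3 (11), female GOF 4 (13), male GOF 3 (12) or male GOF 4 (11). It was 1 without female control 2 or 4, male control 2 or 3 or male GOF 1, 2 without female GOF 2, and 7 without female GOF 1 or male control 1. DESeq2 called 7 and voom 11.

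The length of a transcript went with the size of the change in females. Across the 82 members, transcript length and the log2 fold change had a Spearman rho of 0.507 in females and 0.208 in males, a description since members share libraries. Members of at least 30 CPM were set beside other protein-coding genes of that abundance and length. At lengths up to 500 bases, 10 members had a median of -0.49 in females and -0.60 in males, and 22 other genes -0.06 and -0.06. Between 500 and 800 bases, 29 members had -0.37 and -0.48, and 336 other genes 0.04 and -0.03. Between 800 and 1200 bases, 23 members had -0.25 and -0.43, and 1134 other genes 0.05 and -0.02. Between 1200 and 2000 bases, 8 members had -0.22 and -0.59, and 2384 other genes 0.07 and 0.00. The members' median was the lower one in each of these ranges and in both sexes.

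The partners of these subunits were read from lists of the pathway. The 12 tested mitochondrially encoded subunits, whose transcripts are made from mitochondrial DNA, had medians of -0.87 in females and -0.60 in males, and 10 and 9 of them fell, from -1.23 for mt-Atp8 to -0.61 for mt-Co1 among the female calls. Mitochondrially encoded transcripts made up 3.55% to 4.46% of counts in female controls and 1.75% to 2.93% in female GOF, and 4.09% to 5.33% and 2.92% to 3.77% in males. Over all genes 20.6% fell and 19.0% rose in females, and 21.8% fell and 15.2% rose in males. Cycs, cytochrome c, fell in both sexes (-0.69 and -1.02); of the 16 electron carriers and subunits outside the name rule 4 fell and 2 rose in females, and 11 fell and 1 rose in males, with Aox1, an aldehyde oxidase on that list, higher in both (0.69 and 0.76).

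Assembly factors, which build the complexes without staying in them, had medians nearer 0 than all subunits together. Of 16 complex I factors 2 fell and 2 rose in females and 4 fell in males. Tmem126b fell in both (-0.31 and -0.22), and Foxred1 rose in females and fell in males (0.24 and -0.24), with an interaction of -0.48 ± 0.117 (SE), adjusted p 0.0334 (edgeR). Of 20 complex IV factors 2 fell in females, Cox16 (-0.69) and Cox18 (-0.50), and 6 in males, with Lrpprc, which stabilises mitochondrial messengers, at -0.48. Of 10 factors of complexes II and III 4 fell in females and 2 in males, and of 5 of complex V 1 rose in females (Atpaf1, 0.37) and 3 fell in males. Over all genes 20.6% fell in females and 21.8% in males, so the counts of complex I factors that fell were not above or were near that share. The medians of these lists lay between -0.13 and 0.05 in females and between -0.26 and -0.07 in males.

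Fuel pathways were read in the same way, beside 20.6% of all genes lower in females and 21.8% in males. All 17 genes of the tricarboxylic acid cycle and the pyruvate dehydrogenase complex fell in males and 8 in females, with medians of -0.70 and -0.33. Pdha1, of pyruvate dehydrogenase, had -0.92 and -1.52. Of 18 glycolysis genes 10 fell and 1 rose (Pfkm, 0.25) in females and 14 fell in males, with Ldhb at -2.92 and -2.48 and Hk2, a hexokinase of muscle and fat, at -2.62 and -2.02. Of 77 mitochondrial ribosomal proteins 12 rose and 9 fell in females and 2 rose and 15 fell in males, with medians of 0.07 and -0.11. The shares over all genes were 19.0% higher and 20.6% lower in females and 15.2% higher and 21.8% lower in males, so the share of these proteins that fell in males was near that of all genes.

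Of 17 tested regulators of mitochondrial biogenesis 10 rose and 2 fell in females, where 19.0% of all genes rose. In males 3 rose and 2 fell, where 15.2% of all genes rose, a share near that of the list. The 2 that fell in both were the coactivators Ppargc1a (-3.02 and -2.14), abundant in brown fat and muscle, and Ppargc1b (-1.50 and -2.83), and Myc rose in both (0.97 and 0.75). Of the 8 genes of mitochondrial steroid synthesis Star, which brings cholesterol into the organelle (-0.78 and -0.57), and Cyp11b2, aldosterone synthase (-3.12 and -2.29), fell in both sexes and Nnt, which makes mitochondrial NADPH, rose in both (1.28 and 1.09). The 2 of 8 that fell are near the 20.6% and 21.8% of all genes that fell in females and males.

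**Figure D5:**
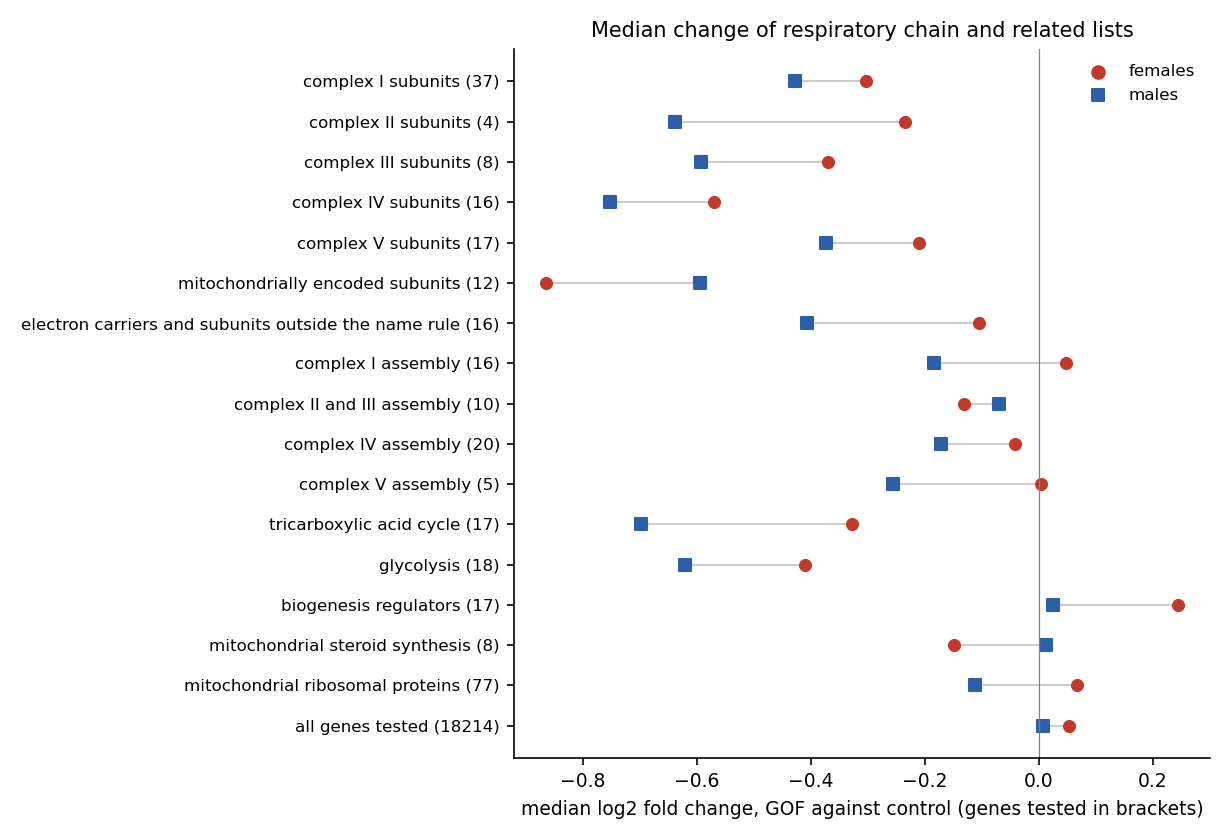
Median log2 fold change of GOF against control in females (circles) and males (squares) for the subunits of each complex, related gene lists and all tested genes, with the number of genes tested in brackets. Subunits, tricarboxylic acid cycle and glycolysis lie left of 0 in both sexes, all genes lie at 0.05 and 0.01, and assembly factors between -0.13 and 0.05 in females and between -0.26 and -0.07 in males.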

How the data were processed

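RNA from adrenal glands of 16 mice was sequenced as 150 bp paired reads (NEBNext Ultra libraries, RNA integrity of at least 7.0), per the labels' protocols. The authors deposited 1 table of read counts per gene and library and 1 of FPKM values. The submitters' processing notes name Bowtie2 2.2.3, TopHat2 2.0.12, HTSeq 0.6.1 and DESeq 1.18.0; genome build, annotation and strand setting are not given in the sources used here. Gene names, lengths and positions came from GENCODE M21 on GRCm38, where 54809 of the 54838 identifiers were found. For 96.1% of 14244 genes with a mean of at least 50 counts, the length implied by the deposited FPKM equalled the mean transcript length of that annotation within 0.1%.

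Counts were scaled by TMM, filtered by filterByExpr over the 4 groups and fitted over all 16 libraries with robust quasi-likelihood in edgeR 4.0.16 (R 4.3.3), with Benjamini-Hochberg adjustment over 18214 genes and a threshold of 0.05. Alternatives used DESeq2 1.42.0, voom and limma 3.58.1 on log2(FPKM + 1), other scalings and filters, a covariate, and left-out libraries. Other tables and plots used Python 3.11.15, numpy 2.4.6, pandas 2.3.3 and matplotlib 3.10.9. Scripts were tested on simulated data. Each SE is the log2 fold change divided by the square root of F.

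Libraries were grouped by their labels, numbered within each group by record order. The design text describes separate mice, and no pair of libraries of the same group agreed within counting noise. The members and lists were chosen with earlier results of these data known. Named members were, per complex and contrast, those called with the highest and lowest changes, the 3 c-subunit genes, restricted forms with their general forms and central catalytic subunits. Others were chosen after their values were seen. Some genes that enter the counts are not reported here by name.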

Additional observations from a re-analysis of the deposited data

Results flagged for a closer look

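Single libraries stood apart from the other 3 of their group in 9 of 196 groups of member values, where chance gives about 1 in 20. In female control 1, Atp5j2 stood at 213 CPM (others 171 to 177), Ndufa13 at 123 (104 to 107) and Ndufv1 at 224 (193 to 197). In male GOF 3, Ndufa4 stood at 245 CPM (others 150.0 to 159.7) and Uqcrh at 109 (92.9 to 95.4), both high, and Ndufb7 at 67.9 (74.7 to 76.0), low. Sdhc was high in female GOF 3, at 156 CPM (119 to 126), and Ndufb8 in male GOF 4, at 55.4 (53.6 to 53.8). Uqcrq was low in male control 4, at 218 CPM (299 to 308).

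An interaction of sex and GOF was called (edgeR, log2 scale) for Ndufv1 (-0.70), Sdha (-0.63), Ndufa10 (-0.61) and Cox5b (-0.42), 4 of 82 members where 4.21% of all genes were called. These calls ended in 8, 15, 18 and 22 of 28 alternatives, and none of the 4 was called without the 3 libraries with kidney or liver transcripts or with the animal number range as a covariate.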

How the results depend on the processing

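In females 55 members were called, 36 with limma on log2(FPKM + 1) without a filter and 26 without the 3 libraries with kidney or liver transcripts; leaving out single libraries gave 43 to 64. In males the 69 became 58 with limma on log2(FPKM + 1) without a filter, 73 with voom and 67 to 72 on leaving out single libraries. The median of the members in males went from -0.49 to -0.36 with limma on log2(FPKM + 1). The median of the interaction went from -0.17 to -0.07 with upper-quartile factors. Between the sexes in controls the 8 became 4 without a filter, 4 with only the groups compared, 15 with voom, 4 with limma on FPKM without a filter, 1 with the animal number range as a covariate, 2 without the 3 libraries and 2 to 11 without single libraries. In GOF the 24 became 15 with limma on FPKM without a filter, 2 with the covariate and 15 to 25 without single libraries. The 4 interactions became 2 with RLE factors, 1 with upper-quartile factors, 2 with totals free of mitochondrially encoded genes, 7 with DESeq2, 1 without a filter, 11 with voom, 0 with limma on FPKM without a filter (13 at an unadjusted p under 0.05), 0 with the covariate (12) and 0 without the 3 libraries (21), and 0 to 7 without single libraries. The cause of these moves was not tested.

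Among the named members with their contrasts, changes of sign fell on uncalled values near 0. Over all tested members, the number below 0 in GOF males was 79 of 82 and 75 of 81 with limma on log2(FPKM + 1). Between the sexes in controls it was 31 of 82, 20 without the 3 libraries and 40 with the covariate. Atp5g1 in females went from -0.01 to 0.022 with voom, 0.0594 with limma on log2(FPKM + 1), 0.0608 when 0.1 was added in place of 1, 0.0594 without a filter, 0.0753 without the 3 libraries and -0.117 to 0.0466 without single libraries. Ndufb2 in females gave 0.0015, 0.0043 and 0.0015 in the same FPKM fits and -0.17 to 0.0571 without single libraries. Atp5b gave -0.198 to 0.0028 in females without single libraries. Atp5g2 in males gave -0.0052 with at least 10 counts in every library and -0.047 to 0.0264 without single libraries. No paired analysis was possible because the labels give no replicate numbers shared between groups. Cox7b2 and Cox8c, with at most 1 and 3 counts in a library, were too scarce to be tested. The authors' handling of reads shared between genes is not given in the sources used here.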

Other observations

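Per length, the members spanned a wide range. Atp5b (2133 FPKM as a mean over all libraries), Sdha (1014), Cox6a1 (945) and Atp5a1 (780.1) were highest, and of the 82 tested members the restricted forms Cox4i2 (3.18) and Cox6a2 (0.392) were lowest. Ndufb2 (5.31 FPKM), Atp5o (6.88) and Atp5l (16.6), general subunits by name, also stood far below the complex medians of 134.6 FPKM for complex I and 225 FPKM for complex V, and none of them was called for GOF against control in either sex. Of their windows of 75 bases, 3.6%, 33.0% and 3.5% recur in another annotated gene.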
